A study of Mus musculus with 13 samples.

Results

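The core circadian clock loop was followed in bulk RNA-seq of mouse hearts. It was taken as 10 genes chosen by name: the activators Arntl (the gene of BMAL1), Clock and Npas2, the repressors Per1, Per2, Per3, Cry1 and Cry2, and the nuclear receptors Nr1d1 and Nr1d2 (REV-ERB alpha and beta). All 10 were found among the 55471 genes of the deposited table by their Ensembl IDs, and all 10 passed the filter on low counts that left 15000 genes for testing. Libraries of whole heart tissue fell into 3 groups: 4 of R502W mice given mavacamten, 4 of R502W mice with no drug (R502W control) and 5 of wild-type mice with no drug (WT control). The R502W variant lies in cMyBP-C, the sarcomere protein made from Mybpc3 that binds myosin in the thick filament, and both R502W groups carry it. Mavacamten, a drug that lowers the activity of the cardiac myosin motor, was given at 2.5 mg/kg/day by way of the drinking water for 21 weeks. An age of 24 weeks is stated in the design text, whereas the extraction protocol speaks of hearts of 3 and 18 weeks. Strain, sex, zygosity and the hour of the day at collection are not labelled, so a difference in the hour between groups and a difference in genotype cannot be told apart here.

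BMAL1 pairs with CLOCK or with NPAS2, and the pair switches on genes that carry E-boxes in their promoters, among them the Per, Cry and Nr1d genes. PER and CRY proteins return to block the pair, and REV-ERB proteins repress Arntl through ROR elements, so that Arntl and its targets peak at opposite times of day. In the heart the loop runs within cardiomyocytes themselves, and their ion channel and metabolic genes are among its known outputs.

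The promoter motifs that this wiring refers to are shown where they were found in the members. RefSeq promoter windows on GRCm38.p6, from 250 bases before to 50 bases after an annotated start, were at hand for 9 of the 10 genes, in 13 windows. Per2 had none. Capitals mark the motif: the ROR element in Arntl (searched as the 10 capitals of its lines, with any letter at their positions 3 and 9), the E-box CACGTG in Per1 and Cry1, its variant CACGTT in Cry1, Cry2 and Nr1d1 (where the capitals are its reverse complement), and the D-box TTANGTAA, which DBP, TEF, HLF and NFIL3 proteins bind, in Per3. Each sequence runs 5′ to 3′ on the strand of its gene.
Arntl, first match, chr7:113207493-113207520, + strand: ttggtcggaAAGTAGGTTAgtggtgcga
Arntl, second match, chr7:113207529-113207556, + strand: gaaggcagaAAGTAGGTCAgggacggag
Per1, chr11:69098774-69098797, + strand: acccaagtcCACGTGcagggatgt
Cry1, chr10:85185100-85185142, - strand: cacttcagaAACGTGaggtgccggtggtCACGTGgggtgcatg
Cry2, chr2:92434221-92434244, - strand: catggtgggAACGTGagggggcgg
Nr1d1, chr11:98775391-98775414, - strand: acagatctcAACGTGccggctgct
Per3, chr4:151044807-151044879, - strand: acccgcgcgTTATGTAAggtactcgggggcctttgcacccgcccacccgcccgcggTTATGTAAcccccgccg
Both strands were searched, and motifs were chosen with the sequences in view. Of all 32851 promoter windows of the same length, 0.682% held the ROR element, 7.15% the E-box, 4.68% the variant and 2.32% the D-box. A match describes the letters only, and a window without one says only that these letters are not in it.

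Libraries held between 15350622 and 19361103 expected counts, and the members had from 20 to 3633 counts in a library. Levels are given in CPM, counts scaled to a common library size with TMM factors. Cardiomyocyte markers (8 genes, summed) stood at 63529 to 88621 CPM in R502W mavacamten, 67086 to 77625 CPM in R502W control and 49101 to 72666 CPM in WT control, as the tissue label says. WT control 2 stood apart from the other libraries. It held 308 CPM of T cell and thymus markers (5 genes, led by Rag1 at 94.0 CPM and Lck at 90.2 CPM), against 1.03 to 5.43 CPM in the other libraries. The lung transcript Scgb1a1 was above 50 CPM in R502W mavacamten 1 (87.2 CPM), WT control 2 (246 CPM) and WT control 3 (349 CPM), and in none of the other libraries, which are called the 3 lung-transcript libraries below. Of the 4 lung markers, the airway genes Scgb1a1 and Cyp2f2 carried this signal (Cyp2f2 at 51.2, 107 and 207 CPM), while the surfactant gene Sftpb was at most 0.423 CPM in any library and Sftpc was at 0 in WT control 2 and 3 and at 0.225 CPM in R502W mavacamten 1. Endothelial markers (5 genes, summed) were higher in R502W control than in WT control without overlap, and overlapped between R502W mavacamten and WT control. They stood at 551 to 764 CPM in R502W mavacamten and 723 to 855 CPM in R502W control, against 472 to 634 CPM in WT control. Of single genes tested, 12.3% and 17.7% did not overlap in R502W mavacamten and in R502W control against WT control. In the same order edgeR called 1 and 2 of the 5 markers higher, beside 5.93% and 8.63% of all genes. At an unadjusted edgeR p under 0.05, 2 and 5 markers were higher, where 3877 and 4361 of 15000 genes differed in either direction. WT control 2 also had the highest Arntl and the lowest Clock, Per1, Per2, Per3, Cry2, Nr1d1 and Nr1d2 of its group, so member results are given with and without it. The part that other tissues and cell types play in these values was not tested, and in whole-tissue RNA fewer cells of a type and less RNA per cell cannot be told apart.

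R502W hearts differed from WT hearts in 9 of the 10 genes, with or without the drug. All 3 activators were higher, and Per1, Per2, Per3, Cry2, Nr1d1 and Nr1d2 were lower. Cry1 did not pass the test in either comparison. In R502W control against WT control, edgeR's quasi-likelihood test at an adjusted p under 0.05 called 3 of 10 members higher, where 8.63% of all genes tested were called higher, and 6 of 10 lower, where 3.75% were called lower. R502W mavacamten against WT control gave the same counts, 3 higher and 6 lower, beside backgrounds of 5.93% and 2.29%. In either direction 9 of 10 members were called in each, against 12.4% of all genes in R502W control and 8.21% in R502W mavacamten. The median size of the log2 fold change, without regard to sign, was 1.07 over the members and 0.22 over all genes in R502W control against WT control. In R502W mavacamten against WT control these medians were 1.02 and 0.21. Both comparisons use the same 5 WT control libraries, so their values are given side by side.

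**Figure D1:**
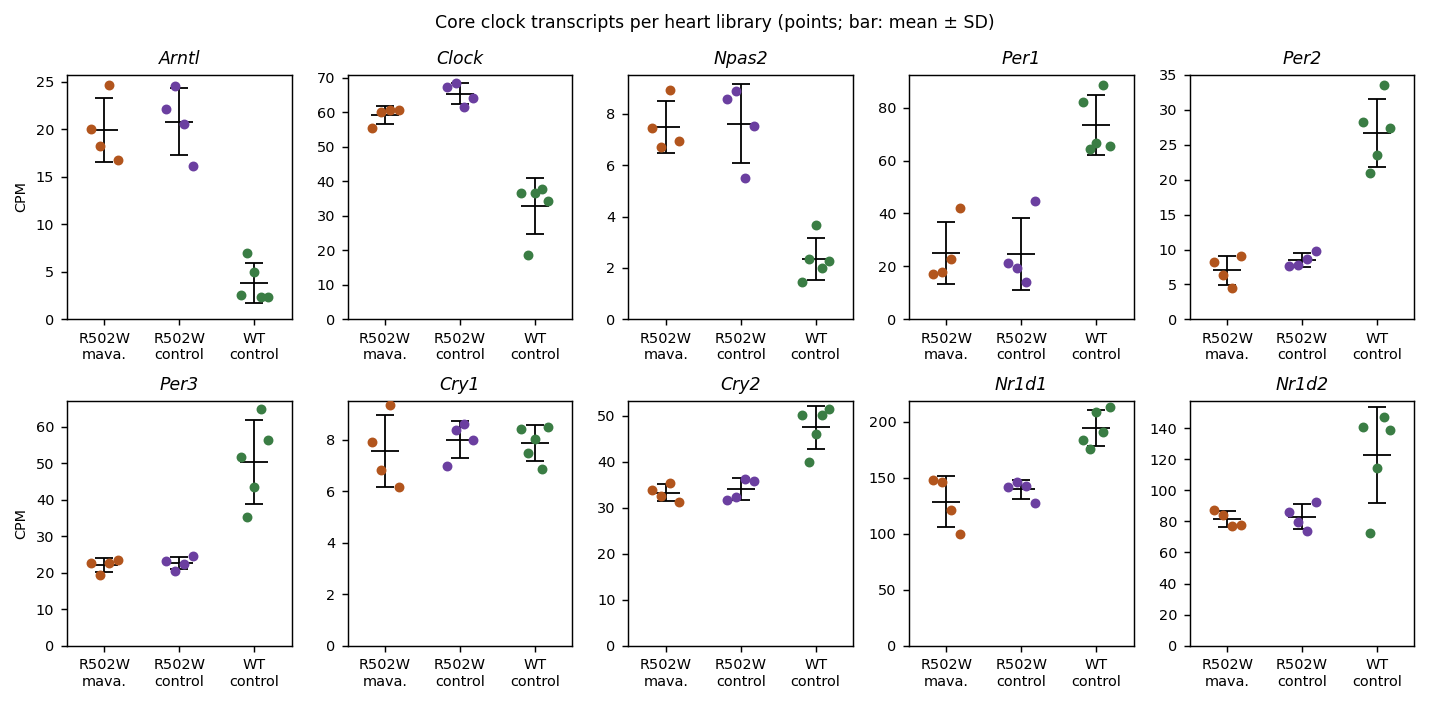
Level of each of the 10 core clock genes in CPM (vertical axis, from 0) in every heart library, by group; points are libraries and bars are mean ± SD (R502W mavacamten n = 4, R502W control n = 4, WT control n = 5). Arntl, Clock and Npas2 lay higher in all R502W libraries than in all WT control libraries, Per1, Per2, Per3, Cry2 and Nr1d1 lay lower in all of them, and the groups overlap for Cry1 and Nr1d2.

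Arntl encodes BMAL1, the partner that the loop cannot run without, and it showed the largest log2 fold change of the 10. Its level was 20, 18.2, 24.6 and 16.8 CPM in R502W mavacamten 1 to 4, against 22.1, 24.5, 20.5 and 16.1 CPM in R502W control 1 to 4 and 2.57, 6.96, 4.95, 2.31 and 2.39 CPM in WT control 1 to 5. Every R502W library was above every WT library, and within WT the libraries 2 and 3 were the highest. Arntl was 5.16-fold higher in R502W mavacamten than in WT control (log2 fold change 2.37 ± 0.28 SE, edgeR adjusted p = 0.000893) and 5.4-fold higher in R502W control than in WT control (2.43 ± 0.28, edgeR adjusted p = 0.000256). With WT control 2 left out the log2 fold changes were 2.66 and 2.72. With all 3 lung-transcript libraries left out they were 3.00 and 3.07.

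Clock encodes the usual partner of BMAL1, and Npas2 its paralog, which can stand in for it. Clock stood at 55.5, 60.0, 60.8 and 60.7 CPM in R502W mavacamten, 67.3, 68.5, 61.7 and 64.2 CPM in R502W control, and 36.6, 18.6, 36.7, 37.9 and 34.3 CPM in WT control. The WT libraries lay below all R502W libraries, and WT control 2 was far below the other 4. Clock was 1.81-fold higher in R502W mavacamten than in WT control (log2 fold change 0.85 ± 0.16, edgeR adjusted p = 0.00898) and 1.99-fold higher in R502W control (1.00 ± 0.16, edgeR adjusted p = 0.00176). Without WT control 2 these were 0.67 and 0.81. Clock also has the longest exonic sequence of the 10, at 13727 bases. With the trend of the levels on exonic length across all genes removed, its log2 fold changes were 0.57 and 0.70, and both were still called. Npas2 stood at 7.43, 6.69, 8.92 and 6.92 CPM in R502W mavacamten, 8.56, 8.89, 5.51 and 7.51 CPM in R502W control, and 1.47, 2.34, 3.68, 1.99 and 2.27 CPM in WT control. No R502W value overlapped a WT value, although R502W control 3 came nearest. Npas2 was 3.17-fold higher in R502W mavacamten (1.66 ± 0.23, edgeR adjusted p = 0.00177) and 3.22-fold higher in R502W control (1.69 ± 0.23, edgeR adjusted p = 0.000662) than in WT control. With WT control 2 left out these were 1.62 and 1.65.

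The 3 Per genes encode the proteins that carry the CRY repressors into the nucleus, and all 3 were lower in R502W hearts. Per1, which is also induced quickly by hormones and stress, stood at 17.0, 17.8, 22.8 and 42.1 CPM in R502W mavacamten, 21.2, 19.3, 14.0 and 44.6 CPM in R502W control, and 82.2, 64.3, 66.6, 88.6 and 65.3 CPM in WT control. Replicate 4 of each R502W group was far above its 3 companions, yet below every WT library. Per1 was at 0.34 of WT control in R502W mavacamten (log2 fold change -1.56 ± 0.33, edgeR adjusted p = 0.0145) and at 0.338 of it in R502W control (-1.56 ± 0.33, edgeR adjusted p = 0.00846). The call in R502W mavacamten against WT control ended when R502W mavacamten 2 was left out (-1.44, edgeR adjusted p = 0.0531) and when the 3 lung-transcript libraries were (-1.53, edgeR adjusted p = 0.0597). Without WT control 2 the log2 fold changes of Per1 were -1.63 and -1.64. The same 2 libraries that were high in Per1 also had the highest Hspa1a, an inducible heat-shock gene chosen for mention after its values were seen, at 41.5 CPM in R502W mavacamten 4 and 23.6 CPM in R502W control 4, against 3.02 to 13.2 CPM in the other libraries. Its part in the Per1 values was not tested.

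Per2, the Per gene on which rhythm in mice most depends together with Per1, stood at 8.27, 6.31, 4.46 and 9.03 CPM in R502W mavacamten, 7.64, 7.78, 8.66 and 9.79 CPM in R502W control, and 28.2, 20.9, 23.5, 33.6 and 27.4 CPM in WT control. All WT libraries were above 20 CPM and all R502W libraries below 10 CPM. Per2 was at 0.264 of WT control in R502W mavacamten (log2 fold change -1.92 ± 0.19, edgeR adjusted p = 0.00019) and at 0.318 of it in R502W control (-1.65 ± 0.19, edgeR adjusted p = 0.000218). Per3, the member with a paired D-box in its window, stood at 22.8, 19.4, 22.7 and 23.6 CPM in R502W mavacamten, 23.3, 20.6, 22.3 and 24.6 CPM in R502W control, and 51.8, 35.3, 43.4, 64.9 and 56.5 CPM in WT control. The 8 R502W values lay close together, below a wide WT range. Per3 was at 0.44 of WT control in R502W mavacamten (-1.19 ± 0.15, edgeR adjusted p = 0.0012) and at 0.451 of it in R502W control (-1.15 ± 0.15, edgeR adjusted p = 0.000475). Leaving out WT control 2, the lowest WT library for both genes, gave Per2 -2.02 and -1.76, and Per3 -1.32 and -1.28.

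The 2 cryptochromes, which encode the direct blockers of the BMAL1 pair, parted. Cry2 stood at 33.9, 32.5, 35.5 and 31.3 CPM in R502W mavacamten, 31.6, 32.3, 36.3 and 35.9 CPM in R502W control, and 50.1, 40.0, 46.0, 50.1 and 51.5 CPM in WT control. No R502W library reached the lowest WT library. Cry2 was at 0.701 of WT control in R502W mavacamten (log2 fold change -0.51 ± 0.09, edgeR adjusted p = 0.00574) and at 0.716 of it in R502W control (-0.48 ± 0.09, edgeR adjusted p = 0.00384). Cry1, which carries both an E-box and its variant in the window shown, stood at 7.93, 6.82, 9.35 and 6.16 CPM in R502W mavacamten, 6.99, 8.39, 8.61 and 7.98 CPM in R502W control, and 8.43, 7.5, 8.03, 6.87 and 8.51 CPM in WT control. The 3 groups overlapped throughout. The 95% interval of its fold difference ran between 0.788 and 1.17 in R502W mavacamten against WT control (edgeR adjusted p = 0.825), and between 0.835 and 1.24 in R502W control against WT control (edgeR adjusted p = 0.926). Without WT control 2, Cry2 had log2 fold changes of -0.60 and -0.57, and Cry1 had -0.11 and -0.03.

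Nr1d1 and Nr1d2, the REV-ERB repressors of Arntl, were lower by a smaller margin than the Per genes. Nr1d1 stood at 148, 146, 121 and 99.8 CPM in R502W mavacamten, 142, 146, 143 and 127 CPM in R502W control, and 184, 176, 209, 191 and 213 CPM in WT control. Every R502W library was below every WT library. Nr1d1 was at 0.66 of WT control in R502W mavacamten (log2 fold change -0.60 ± 0.11, edgeR adjusted p = 0.0093) and at 0.716 of it in R502W control (-0.48 ± 0.11, edgeR adjusted p = 0.0142). Leaving out WT control 2 gave -0.67 and -0.55. Nr1d2 stood at 87.6, 84.0, 77.0 and 77.9 CPM in R502W mavacamten, 85.8, 79.8, 73.6 and 92.5 CPM in R502W control, and 141, 72.5, 114, 147 and 139 CPM in WT control. Here 4 WT libraries were above all R502W libraries, and WT control 2 was below them. Nr1d2 was at 0.664 of WT control in R502W mavacamten (-0.59 ± 0.17, edgeR adjusted p = 0.0434) and at 0.675 of it in R502W control (-0.57 ± 0.17, edgeR adjusted p = 0.039). These calls were near the threshold. Of the 13 runs that each left out 1 library, 1 kept the call in R502W mavacamten against WT control and 5 kept it in R502W control against WT control. Without WT control 2 the log2 fold changes of Nr1d2 were -0.76 and -0.74 (edgeR adjusted p = 0.000638 and 0.00032).

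Values of R502W and WT libraries did not overlap for 8 of the 10 genes, all but Cry1 and Nr1d2, in either comparison with WT control. Over all genes tested, 12.3% did not overlap between R502W mavacamten and WT control and 17.7% between R502W control and WT control. Leaving out WT control 2 kept all 9 calls in both comparisons. Leaving out the 3 lung-transcript libraries together kept all 9 in R502W control against WT control and 8 in R502W mavacamten against WT control, where Per1 was the exception given above.

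**Figure D2:**
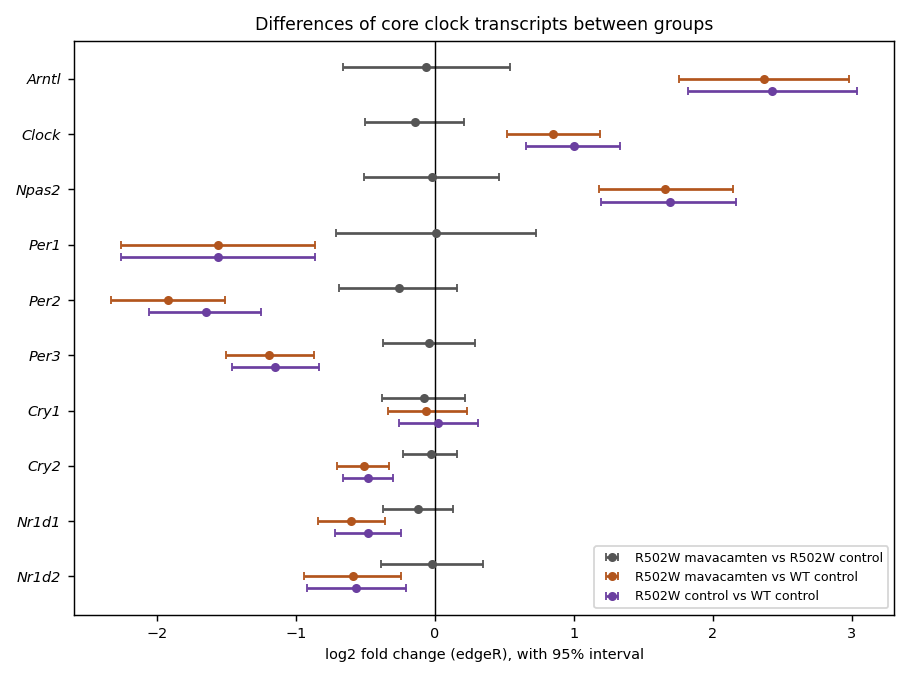
Log2 fold change of each core clock gene from edgeR with its 95% interval (horizontal axis, log2 scale), for R502W mavacamten against R502W control, R502W mavacamten against WT control, and R502W control against WT control. The 2 comparisons with WT control share their WT libraries and lie on the same side of 0 for 9 genes, at 2.37 and 2.43 for Arntl and -1.92 and -1.65 for Per2, while every interval of the comparison between the R502W groups includes 0.

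Mavacamten-treated R502W hearts did not differ detectably from R502W control hearts in any of the 10 genes. edgeR's quasi-likelihood test called 0 members (adjusted p = 1 for each), beside a background of 0% of all genes tested. At an unadjusted p under 0.05 it gave 0 of 10 members and 525 of 15000 genes, where 750 would be expected by chance, and DESeq2 also called 0 members. Over all genes DESeq2 called 1 higher and 5 lower, and edgeR called 0 higher and 7 lower when the 3 lung-transcript libraries were left out. The median log2 fold change was -0.05 over the members and 0 over all genes. Fold differences of the activators, with 95% intervals, were 0.957 (0.631 to 1.45) for Arntl, 0.906 (0.709 to 1.16) for Clock and 0.983 (0.701 to 1.38) for Npas2. On the log2 scale the intervals reached down to -0.66 for Arntl, -0.50 for Clock and -0.51 for Npas2. The differences of R502W control from WT control had lower bounds of 1.82, 0.66 and 1.2, each larger in size than these. Both sets of intervals rest on the same R502W control libraries, so setting bound against bound is not a test. For the repressors the fold differences were 1 (0.611 to 1.65) for Per1, 0.832 (0.619 to 1.12) for Per2 and 0.974 (0.776 to 1.22) for Per3. Cry1 had 0.945 (0.767 to 1.16), Cry2 0.978 (0.855 to 1.12), Nr1d1 0.922 (0.776 to 1.1) and Nr1d2 0.984 (0.761 to 1.27). On the side of a rise, the intervals reached 0.16 for Per2, 0.29 for Per3, 0.73 for Per1, 0.16 for Cry2, 0.13 for Nr1d1 and 0.35 for Nr1d2. In R502W control against WT control the bounds nearest to 0 were -1.25 for Per2, -0.83 for Per3 and -0.86 for Per1. They were -0.30 for Cry2, -0.24 for Nr1d1 and -0.21 for Nr1d2. For Nr1d2 a rise as large as that bound was within the interval between the R502W groups. Clock was the 1 member whose libraries did not overlap between the R502W groups, with its highest treated library just under the lowest R502W control library, and 2.87% of all genes tested did not overlap. Changes within these intervals were not detectable with 4 libraries a group.

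Levels within a library can be compared between genes per kilobase of exonic sequence. On that scale Nr1d1 was the most abundant of the 10 in every group, at 41.8 ± 7.41 CPM per kb in R502W mavacamten, 45.3 ± 2.7 in R502W control and 63.3 ± 5.19 in WT control (SD, n = 4, 4 and 5). Nr1d2 came second in every group, at 15.1 ± 0.932 CPM per kb in R502W mavacamten, 15.3 ± 1.5 in R502W control and 22.7 ± 5.73 in WT control. Below these the order differed with genotype. Per1 came next in WT control at 13 ± 1.99 CPM per kb, whereas Cry2 came next in R502W mavacamten at 5.27 ± 0.284 and in R502W control at 5.38 ± 0.385. In the R502W groups Per1, at 4.42 ± 2.08 and 4.4 ± 2.41 CPM per kb, did not differ from Cry2 beyond its spread. At the low end, Per2 was last in R502W mavacamten (1.2 ± 0.351 CPM per kb) and in R502W control (1.45 ± 0.169), where Npas2 above it (1.56 ± 0.209 and 1.59 ± 0.318) did not differ from it beyond the spread. In WT control Npas2 (0.491 ± 0.171 CPM per kb) and Arntl (0.51 ± 0.274) shared the lowest level, within their spread, and Per2 stood at 4.56 ± 0.831. Neighbours within their spread were also Cry1 and Clock in WT control, at 2.36 ± 0.205 and 2.39 ± 0.587 CPM per kb, and Per3 and Cry1 in R502W mavacamten, at 2.30 ± 0.191 and 2.27 ± 0.417.

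A ratio of 2 members within a library does not depend on how that library was scaled. The ratio of Arntl to Per2, activator to repressor, had a lowest, median and highest value of 1.44, 2.06 and 4.29 in R502W mavacamten, 1.28, 2.04 and 2.45 in R502W control, and 0.0534, 0.0709 and 0.259 in WT control, all per kilobase. Arntl thus outnumbered Per2 in all 8 R502W libraries and fell short of it in all 5 WT libraries. For Arntl to its repressor Nr1d1 these values were 0.051, 0.0617 and 0.0832 in R502W mavacamten, 0.0516, 0.0611 and 0.0687 in R502W control, and 0.0046, 0.0057 and 0.0162 in WT control. WT control 2 and 3 gave the 2 highest WT values of both ratios, still below every R502W library. That separation follows from the levels above and adds nothing to them. Arntl was higher, and Per2 and Nr1d1 were lower, in every R502W library than in every WT library. Per2 to Cry1, the 2 arms of the repressor complex, was 0.272, 0.56 and 0.836 in R502W mavacamten, 0.529, 0.598 and 0.7 in R502W control, and 1.59, 1.83 and 2.79 in WT control, again with no overlap between genotypes. Npas2 to Clock, a ratio of 2 activators, did overlap between genotypes. It was 0.319, 0.354 and 0.42 in R502W mavacamten, 0.256, 0.349 and 0.372 in R502W control, and 0.115, 0.189 and 0.36 in WT control.

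**Figure D3:**
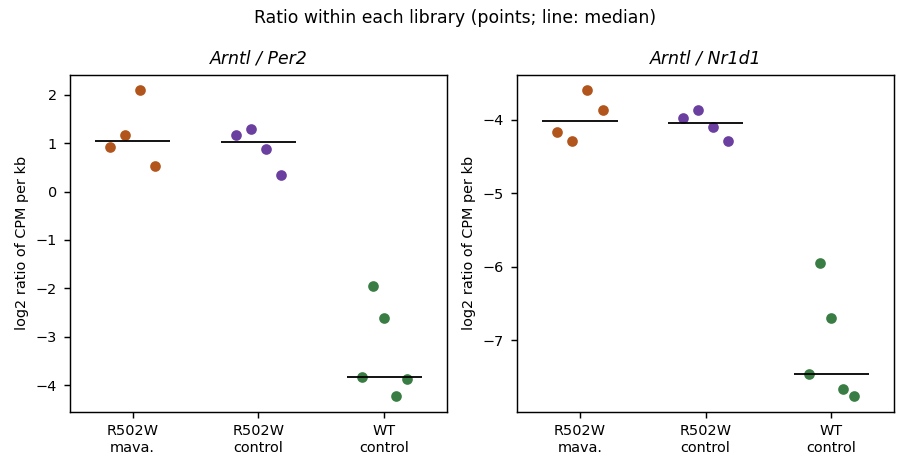
Ratio of Arntl to Per2 and of Arntl to Nr1d1 within each library (vertical axis, log2 of the ratio of CPM per kb); points are libraries and lines are group medians. For Arntl to Per2 the R502W libraries lie above 0 and the WT control libraries below it, with medians of 1.04 in R502W mavacamten, 1.03 in R502W control and -3.82 in WT control.

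How far replicates lay apart depended on the gene. Per1 spread most in the R502W groups, with an SD of log2 CPM of 0.60 in R502W mavacamten and 0.70 in R502W control, wider than 89.4% and 95.2% of genes tested in the same group, whereas its SD was 0.21 in WT control. Arntl was the reverse, at 0.24 and 0.26 in the R502W groups and 0.70 in WT control, wider than 90.7% of genes there. Clock had the narrowest spread of the members in the R502W groups (0.06 and 0.07) and 0.43 in WT control. The medians over all genes tested were 0.20 in R502W mavacamten, 0.16 in R502W control and 0.24 in WT control. In R502W mavacamten 3, Arntl, Clock, Npas2, Cry1 and Cry2 were the highest of their group and Per2 and Nr1d2 the lowest. Clock and Nr1d2 were so by little. They lay at 0.04 and -0.08 from their group means on the log2 scale, against 0.03 and -0.06 in R502W mavacamten 4. In R502W control 4, Arntl and Nr1d1 were the lowest of their group and Per1, Per2, Per3 and Nr1d2 the highest. Whether such libraries were collected at another hour is not labelled.

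**Figure D4:**
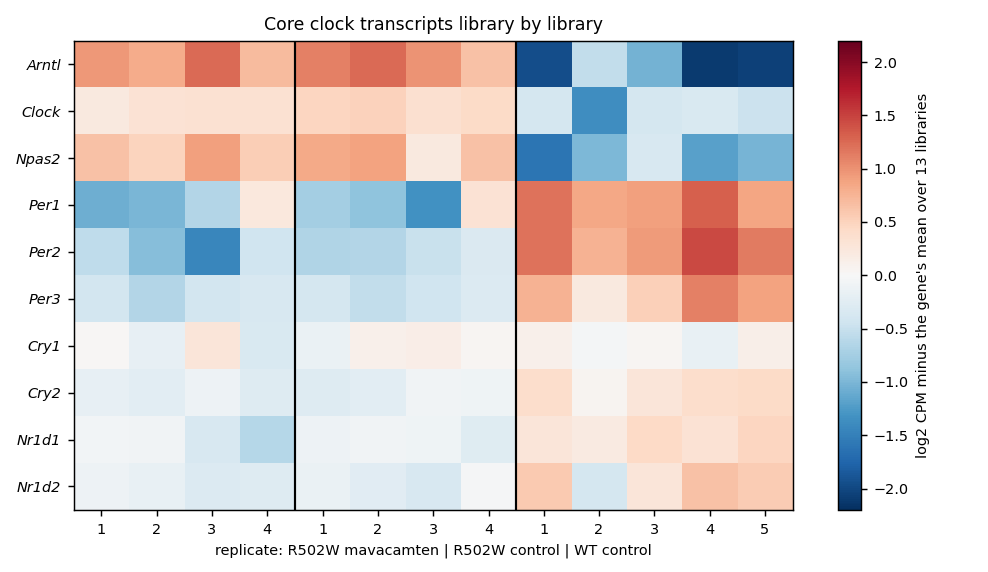
Level of each core clock gene in each library as log2 CPM minus the gene's own mean over the 13 libraries (colour, blue below and red above), with libraries in columns by group and replicate. The activator rows are red in the R502W libraries and blue in the WT control libraries and the Per rows the reverse apart from Per1 in replicate 4 of both R502W groups, Cry1 is near white throughout, and WT control 2 is the palest or the opposite colour of its group for Nr1d2, Per3 and Cry2.

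Transcription factors tied to the loop were looked at as a list of 11 genes. In each comparison with WT control 1 was called higher and 6 lower by edgeR, where the shares of all genes called higher and lower were 5.93% and 2.29% in R502W mavacamten and 8.63% and 3.75% in R502W control. The D-box activators Dbp, Tef and Hlf were lower. Dbp stood at 45.0, 52.7, 38.2 and 30.7 CPM in R502W mavacamten, 37.4, 32.5, 33.2 and 58.2 CPM in R502W control, and 184, 191, 153, 185 and 204 CPM in WT control. No R502W library came near a WT library. The log2 fold changes against WT control in R502W mavacamten and in R502W control were -2.14 ± 0.19 and -2.18 ± 0.19 for Dbp, -1.16 ± 0.15 and -1.18 ± 0.15 for Hlf, and -0.90 ± 0.09 and -0.72 ± 0.09 for Tef. Nfil3, the D-box repressor that competes with them, was the gene called higher, at 11.1, 7.85, 10.3 and 10.2 CPM in R502W mavacamten, 11.3, 11.6, 16.3 and 11.6 CPM in R502W control, and 3.08, 3.24, 3.32, 3.46 and 4.10 CPM in WT control. Its values did not overlap between genotypes, and its log2 fold changes were 1.52 ± 0.15 (edgeR adjusted p = 0.00019) and 1.88 ± 0.15 (edgeR adjusted p = 2.55e-05).

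Ciart (Chrono), a further E-box repressor of the loop, stood at 2.53, 1.87, 2.12 and 1.89 CPM in R502W mavacamten, 2.09, 1.56, 1.86 and 3.16 CPM in R502W control, and 21.3, 14.9, 11, 16.7 and 16.3 CPM in WT control. All WT libraries were above 10 CPM and all R502W libraries below 4 CPM. Its log2 fold changes of -2.92 ± 0.23 in R502W mavacamten and -2.88 ± 0.23 in R502W control, against WT control, were larger in size than those of any of the 10 members. The E-box repressors Bhlhe41 (DEC2) and Bhlhe40 (DEC1) were lower by less, with -0.78 and -0.80 for Bhlhe41, and -0.58 and -0.48 for Bhlhe40. The Bhlhe40 call was kept in 10 of 13 runs without 1 library in R502W mavacamten against WT control and in 7 of 13 in R502W control against WT control. Rora and Rorb, activators that share ROR elements with the REV-ERBs, did not pass the test in any comparison, nor did the Arntl paralog Arntl2. The log2 fold changes in R502W mavacamten and R502W control against WT control were 0.24 ± 0.18 and 0.22 ± 0.17 for Rora, 0.55 ± 0.33 and 0.99 ± 0.32 for Rorb, and 0.30 ± 0.26 and 0.45 ± 0.26 for Arntl2. Rora stood at 27.0, 27.5, 33.7 and 27.9 CPM in R502W mavacamten, 32.1, 28.1, 27.1 and 27.0 CPM in R502W control, and 26.3, 13.4, 25.1, 29.8 and 28.0 CPM in WT control, and the groups overlapped.

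Enzymes that modify or degrade clock proteins moved less. Of 20 kinases, phosphatases, ubiquitin ligases and related enzymes, edgeR called 3 higher and 2 lower in R502W mavacamten against WT control, and 2 higher and 2 lower in R502W control against WT control, beside 8.21% and 12.4% of all genes in either direction. The median size of the log2 fold change of these enzymes was 0.21 and 0.23, near the 0.21 and 0.22 of all genes. Gsk3b, which phosphorylates several clock proteins, had log2 fold changes of 0.65 ± 0.12 and 0.64 ± 0.12, and the deubiquitinase Usp2 had -0.61 ± 0.17 and -0.67 ± 0.17. In R502W control against WT control the Usp2 call was kept in 11 of 13 runs without 1 library and in 7 of 8 other settings. Its highest R502W control value was 78.8 CPM and its lowest WT control value 79 CPM. The casein kinase Csnk1d, which phosphorylates PER proteins, had -0.10 ± 0.07 and -0.08 ± 0.07, and was not called. Among 17 partners and chromatin factors, 5 were called higher and 0 lower in each comparison with WT control, where 5.93% and 8.63% of all genes were called higher and 2.29% and 3.75% lower. At an unadjusted p under 0.05 the test put 1 lower in each, and DESeq2 called 1 lower in R502W mavacamten and 0 in R502W control. Among those called higher, Kmt2a, a histone methyltransferase, had 0.82 ± 0.15 and 0.89 ± 0.15. In R502W control against WT control its call was kept in 13 of 13 runs without 1 library and in 8 of 8 other settings. Kdm5a and Sfpq, also called higher there, kept their calls in 2 and 8 of 13 runs and in 3 and 5 of 8 other settings. Across those other settings the log2 fold change went as low as 0.53 for Kmt2a and 0.15 for Kdm5a. The corepressor Ncor1, through which REV-ERBs act, had 0.56 ± 0.15 and 0.55 ± 0.15. The Ncor1 calls were near the threshold. They were kept in 6 and 8 of 13 runs without 1 library, and were lost in both comparisons under the replicate block and with the length trend removed (edgeR adjusted p = 0.0907 and 0.0832 for the length trend), and in R502W mavacamten also with 2 groups only and with no filter. Its deacetylase partner Hdac3 had -0.17 ± 0.09 and -0.19 ± 0.09, and was not called. In R502W mavacamten against R502W control, edgeR and DESeq2 called 0 of the 48 genes on these and the loop-linked list, and 1 of them, Nfil3 (-0.36 ± 0.15), had an unadjusted edgeR p under 0.05.

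Cues that reset peripheral clocks were checked through genes that respond to glucocorticoids and to temperature. Of 12 glucocorticoid-responsive genes, 1 was called higher and 1 lower in R502W mavacamten against WT control, and 2 higher and 1 lower in R502W control against WT control, beside 8.21% and 12.4% of all genes in either direction. Cdkn1a, a cell cycle inhibitor, had log2 fold changes of 1.04 ± 0.18 and 1.21 ± 0.18, and the metallothionein Mt2 had -0.84 ± 0.21 and -0.74 ± 0.21. The Mt2 call was kept in 9 and 7 of 13 runs without 1 library and in 4 and 5 of 8 other settings. Fkbp5 and Tsc22d3, among the usual markers of the glucocorticoid response, had -0.53 ± 0.25 and -0.35 ± 0.25, and -0.26 ± 0.14 and -0.28 ± 0.14, and were not called. Of 8 temperature-responsive genes, edgeR called 1 higher and 0 lower in R502W mavacamten against WT control (1 lower at an unadjusted p under 0.05, and 0 lower by DESeq2), and 2 higher and 2 lower in R502W control against WT control. In the untreated comparison the chaperones Hsph1 and Hsp90aa1 were higher, by 0.90 ± 0.10 and 0.86 ± 0.13 on the log2 scale, and the cold-inducible Rbm3 and Cirbp were lower, at -0.62 ± 0.15 and -0.42 ± 0.09. Hsph1 was also called in R502W mavacamten against WT control, at 0.43 ± 0.10 (edgeR adjusted p = 0.025), a call kept in 10 of 13 runs without 1 library and in 4 of 8 other settings. The part of either cue in the member values was not tested.

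The genes most like Arntl and Nr1d1 across the 13 libraries were sought among 13676 genes outside the 10 members, tested and with a mean of at least 1 CPM. Likeness was the root mean square difference of log2 CPM, each gene centred on its own mean. Nearest to Arntl were Spon2 (0.54), Tmem171 (0.56), Nfil3 (0.64), Tnfrsf12a (0.65) and Adam19 (0.66), while the member Npas2 lay at 0.54 and Clock at 0.97. Spon2, a secreted matrix protein, averaged 9.35 ± 0.886 CPM in R502W mavacamten, 9.73 ± 4.51 CPM in R502W control and 2.57 ± 0.805 CPM in WT control (SD, n = 4, 4 and 5). Nearest to Nr1d1 were Tmem86a (0.15), and Acy3, Wnk4, Mapk3 and Gm43672 (0.16 each), while the members Cry2 and Nr1d2 lay at 0.17 and 0.26. Cry1, which was not called, lay at 0.31, nearer than Per3 at 0.39, Per2 at 0.69 and Per1 at 0.80. Tmem86a averaged 20.2 ± 4.5 CPM in R502W mavacamten, 22 ± 2.33 CPM in R502W control and 30.4 ± 2.06 CPM in WT control. Any gene that differs by genotype to a like degree lies near on this measure. For Nr1d1, whose own differences were small, a gene that varies little can also lie fairly near.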

How the data were processed

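Poly(A)-selected, strand-specific libraries of whole heart were sequenced, per the labels' protocols. The deposited table holds expected counts per Ensembl gene from RSEM, and the submitters' processing notes also name cutadapt, FastQC, DESeq2 and GRCm38, without versions. Aligner and strand setting are not given in the sources used here. Of the values, 5.76% were fractional, and all were rounded.

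Testing used edgeR 4.0.16 in R 4.3.3. Genes were kept by filterByExpr (minimum count 10, total 15), scaled by TMM, and fitted by the quasi-likelihood method with 1 mean per group over all 13 libraries. Adjustment was Benjamini-Hochberg over 15000 genes, and calls were at adjusted p under 0.05. The biological coefficient of variation was 0.232. Intervals are the estimate ± SE times the t quantile (13.8 degrees of freedom). Gene names and exonic lengths came from a GRCm38 annotation by ID, where 55144 of 55471 IDs had a symbol. Motifs were matched to RefSeq windows on GRCm38.p6.

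Labels do not say that libraries came from separate mice, so the spread behind each p-value may be technical. All 22 pairs within groups differed beyond sampling noise (chi-square per degree of freedom 7.57 to 109). Alternatives were RLE factors, 2 other filters, DESeq2 1.42.0, fits of 2 groups only, a replicate block, removal of the length trend, 13 fits without 1 library and, chosen after seeing the data, a fit without lung-transcript libraries. Members, lists and motifs were chosen with earlier results of these data known. Named were all members, the loop-linked list and up to 4 called genes of each other list; others were named for their role after their values were seen. Some list genes are counted but not reported here by name. The edgeR and DESeq2 fits were tested on simulated data, where a limit on false calls was applied to edgeR only.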

Additional observations from a re-analysis of the deposited data

Results flagged for a closer look

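The highest and lowest libraries of each group were compared with their nearest neighbour for the 10 genes by Dixon's test. In 30 such groups of values 2 stood out, where chance flags about 1 in 20. Both were in Clock. R502W mavacamten 1 had 55.5 CPM, below the 60.0 to 60.8 CPM of its companions, which lay close together. WT control 2 had 18.6 CPM, below the 34.3 to 37.9 CPM of the other WT control libraries. Both libraries also held the lung transcript Scgb1a1, at 87.2 CPM in R502W mavacamten 1 and 246 CPM in WT control 2. WT control 3 held more of it, at 349 CPM, and had 36.7 CPM of Clock, within the range of the other WT libraries. Clock also has the longest exonic sequence of the 10, at 13727 bases. With the length trend removed its log2 fold change in R502W control against WT control was 0.70. The part of other tissue or of exonic length in the Clock values of these libraries was not tested. Without WT control 2 the log2 fold change of Clock was 0.67 in R502W mavacamten and 0.81 in R502W control, against WT control, and both calls were kept.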

How the results depend on the processing

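Across 21 other settings, 601 of 630 member values stayed on their side of the threshold, 29 lost a call and 0 turned round while called. Cry1, and all members between the R502W groups, had no call to lose, and their values count among the 601. The counts of 3 members higher and 6 lower than WT control, and of 0 between the R502W groups, stayed within 1.5 times under every setting run. Calls were lost for Nr1d2 (replicate block -0.51 and -0.49 in R502W mavacamten and R502W control against WT control, adjusted p = 0.116 and 0.0984; also with 2 groups only and, in R502W mavacamten, with no filter), Nr1d1 in R502W control (replicate block -0.45, adjusted p = 0.0529), Clock in R502W mavacamten (2 groups only, 0.82, adjusted p = 0.0528) and Per1 in R502W mavacamten as given above. Correlation over all genes tested showed no pairing by replicate number: of 12 same-numbered pairs 1 correlated above 0.1 (-0.323 to 0.253), and 0 libraries correlated best with their own number. Such a correlation cannot show whether same-numbered libraries shared collection or handling. Btrc in R502W mavacamten against WT control was -0.035 with the length trend removed, against 0.34 without. Counts over all genes moved more. Higher and lower calls were 889 and 343 in R502W mavacamten and 1294 and 562 in R502W control, against WT control. They were 121 and 65 in R502W mavacamten with 2 groups only, 268 and 81, and 742 and 221, under the block, 527 and 213, and 843 and 443, with no filter, 377 and 255, and 778 and 529, with the length trend removed, 440 and 174, and 792 and 452, without lung-transcript libraries, and 1081 and 741, and 1413 and 1088, in DESeq2. Without 1 library they ranged over 268 to 793 higher and 113 to 410 lower in R502W mavacamten (fewest without R502W mavacamten 2), and 613 to 1270 and 224 to 761 in R502W control (fewest higher without R502W control 2, fewest lower without R502W control 3). Between the R502W groups they were 0 and 0, except for 1 and 5 in DESeq2 and 0 and 7 without lung-transcript libraries. The causes were not tested. With 4 or 5 libraries a group, differences within the intervals given are not resolved.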
